A study of Mus musculus with 2 samples.

Results

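Peaks of H2BK120ub on chromosomes 4, 13 and 18 were described in 2 lists of called peaks, with positions in the human build hg19. Members were the peaks of at most 10000 bp whose midpoint lay more than 2 Mb from both chromosome ends. The WT list held 10732 members of 101866 peaks (10.5%), and the list of Alb-Cre;UBR7fl/fl cells, called UBR7-KO, held 13652 of 127444 (10.7%). On these 3 chromosomes the length limit left out 263 WT and 151 UBR7-KO peaks, and the end limit left out 551 and 609. The members made up 92.9% and 94.7% of all peaks on the 3 chromosomes, and 0 peaks of either list reached past the hg19 chromosome lengths.

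H2BK120ub is histone H2B carrying a single ubiquitin on lysine 120, a mark laid down during transcription over the bodies of active genes. It opens chromatin locally and is needed for methylation of histone H3 at active genes. Chromosomes differ in how much of their length is transcribed, and 4, 13 and 18 are known as chromosomes with few genes per length. Giemsa banding shows the same contrast within a chromosome, since unstained bands are in general rich in genes and replicate early, and the darkest bands are poor in genes and replicate late.

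The cells were conditionally immortalized mouse liver primary cells grown in culture, with 1 ChIP-seq library from wild-type cells and 1 from UBR7-KO cells. In the second genotype the albumin promoter drives Cre, which acts on floxed UBR7 in hepatocytes, so other liver cells are expected to keep the gene. UBR7 is an E3 ubiquitin ligase, and the comparison asked where H2BK120ub lies with and without it. The samples are labelled as mouse although the positions are human, and hg19 genes were not used here, so neither Ubr7 itself, nor liver marker genes, nor the number of genes on these chromosomes was checked. Whether the reads were of mouse or human could not be told from the lists. If they were of mouse, hg19 positions would reflect sequence shared between the species as well as the mark, and bands would not be those of the cells. With 1 library per genotype, each difference is one between 2 libraries, with no replicate error and no test. Read depth is unknown.

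Peaks were more numerous in UBR7-KO on each of the 3 chromosomes. Chromosome 4 carried 5033 WT members and 6674 UBR7-KO members, chromosome 13 carried 3074 and 3852, and chromosome 18 carried 2625 and 3126. The ratios were 1.33, 1.25 and 1.19, respectively, and 1.27 for the 3 together, against 1.31 on the other 19 autosomes under the same length and end limits. Chromosome 18 had the lowest ratio of the 22 autosomes after chromosome 19. The ratio changed with the threshold. Among members with a fold enrichment of at least 2.5, 1855 were WT and 1538 were UBR7-KO, a ratio of 0.829. Among members whose pileup was 3 or more times the background recovered for the same peak, it was 2.48. That threshold is passed more easily at a lower background, and the recovered background, which scales with depth, had a median of 2.16 in WT and 1.34 in UBR7-KO members, so 2.48 cannot be told apart from a difference in depth. When the larger list was reduced to the size of the WT list by fold enrichment, the ratio was 1.03. With lists of equal size, similar member numbers are largely built in, so nothing about the excess is read from this value.

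Next, peak density was measured outside the centromeric, stalk and variable heterochromatic bands, over 346.8 Mb. The 3 chromosomes held 30.8 WT and 39.1 UBR7-KO members per Mb, and the other 19 autosomes held 34.3 and 45. Density was thus 0.896 and 0.870 times that of the other autosomes. Chromosome 4 had the lowest density of the 22 autosomes in both lists, with 27.4 WT and 36.3 UBR7-KO members per Mb. Chromosome 13 held 32.7 and 41.0 per Mb and stood 6th and 4th from the bottom. Chromosome 18 held 37.0 and 43.9 per Mb, 15th and 9th from the bottom, within the range of the other autosomes (30.7 to 42.0 in WT and 40.4 to 54.6 in UBR7-KO). The lower density of the 3 chromosomes in WT rested on chromosome 4, because without it the ratio to the other autosomes was 1.006. The WT ratio also turned to 1.03 when peaks within 5000 bp of each other were merged, and the UBR7-KO ratio was then 0.998. The 10000 bp limit was applied after merging, so longer merged peaks dropped out, and that removal was not separated from the joining. Among members whose pileup was 3 or more times the background, the ratios were 1.003 in WT and 1.04 in UBR7-KO. That threshold is passed more easily at the lower background of these chromosomes.

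**Figure D1:**
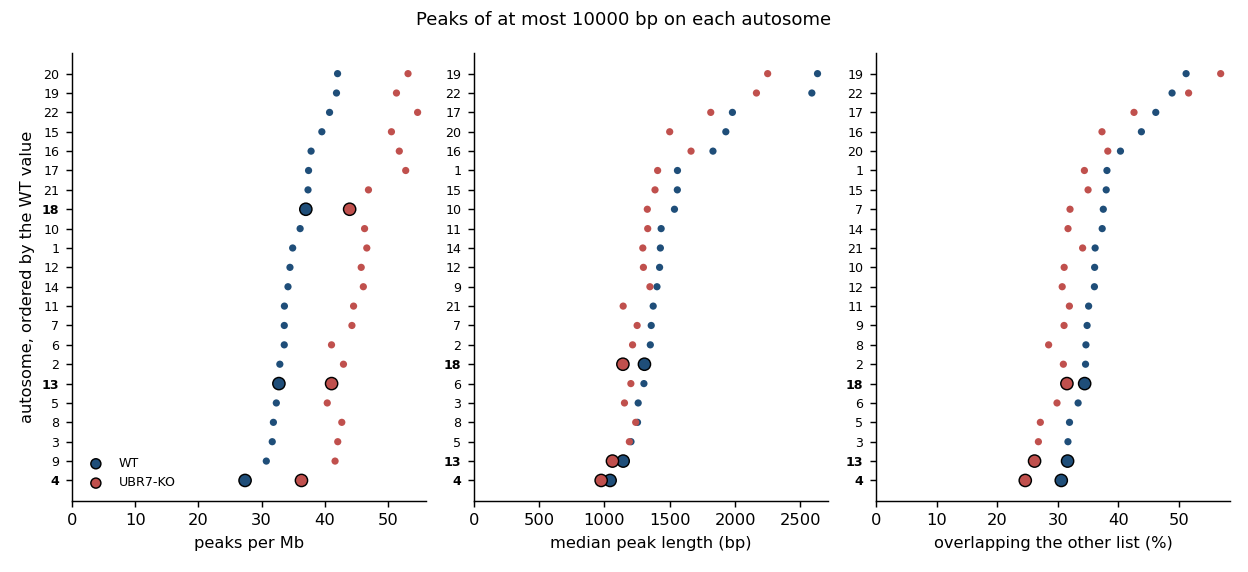
Peaks per Mb outside heterochromatic bands, median peak length in bp and share of peaks overlapping the other list in percent, for each of the 22 autosomes (1 point per list, autosomes ordered by the WT value). Chromosomes 4, 13 and 18 are outlined and set in bold, and chromosome 4 is lowest in all 6 series of points, with 27.4 WT and 36.3 UBR7-KO peaks per Mb.

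The arms of these chromosomes differed more than the chromosomes themselves. The short arm of chromosome 18 was the densest arm in both lists, with 49.2 WT and 55 UBR7-KO members per Mb, against 34.1 and 41.3 on its long arm. The long arm of chromosome 4, which is the longest of the 5 arms, was the sparsest, with 26.5 and 35.1 per Mb. Its short arm held 29.9 and 39.8 per Mb. The ratio of UBR7-KO to WT numbers was 1.33 on 4p, 1.32 on 4q, 1.25 on 13q, 1.21 on 18q and 1.12 on 18p. In these 2 libraries the ratio was therefore smallest on the arm with the most peaks per Mb.

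Density fell with the Giemsa stain of the band. Unstained bands of the 3 chromosomes held 36.1 WT and 44.9 UBR7-KO members per Mb, and the darkest bands held 25 and 30.5. The ratio of unstained to darkest bands was 1.45 for WT and 1.47 for UBR7-KO. When peaks within 5000 bp were merged, with merged peaks over 10000 bp left out, it was 1.14 and 1.19. The lightest of the stained classes (25%) held 37.0 and 48.0 per Mb, slightly above the unstained bands. Bands of the 75% class held 23.4 WT members per Mb, below the darkest bands, whereas UBR7-KO members followed the stain without a break from the 25% class onward. The gradient differed in steepness between chromosomes. On chromosome 18, unstained bands held 44.6 WT and 50.6 UBR7-KO members per Mb and the darkest held 26.1 and 32.9. On chromosome 4, the same classes held 32.3 and 42.3, and 23.3 and 28.5. On chromosome 13 they held 36.5 and 45.1, and 26.8 and 32.1. The darkest bands of the 3 chromosomes thus lay close together (23.3 to 26.8 WT members per Mb), and the unstained bands spread more widely.

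Darkest bands made up 24.0% of the length measured on the 3 chromosomes and 16.9% on the other 19 autosomes. When the other autosomes were weighted to the band makeup of the 3 chromosomes, they held 33.6 WT and 43.9 UBR7-KO peaks per Mb. The 3 chromosomes then stood at 0.916 and 0.890 times that density, against 0.896 and 0.870 before weighting. As a difference in peaks per Mb, the gap within a stain class was widest in the 50% class. That class held 27.3 WT and 38.5 UBR7-KO members per Mb on the 3 chromosomes and 36.2 and 49.0 elsewhere. For UBR7-KO, the gap in the 75% class (31.9 against 41.6 per Mb) was nearly as wide by difference and wider by ratio. In the darkest class, WT density was nearly equal, with 25 and 25.3 per Mb.

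**Figure D2:**
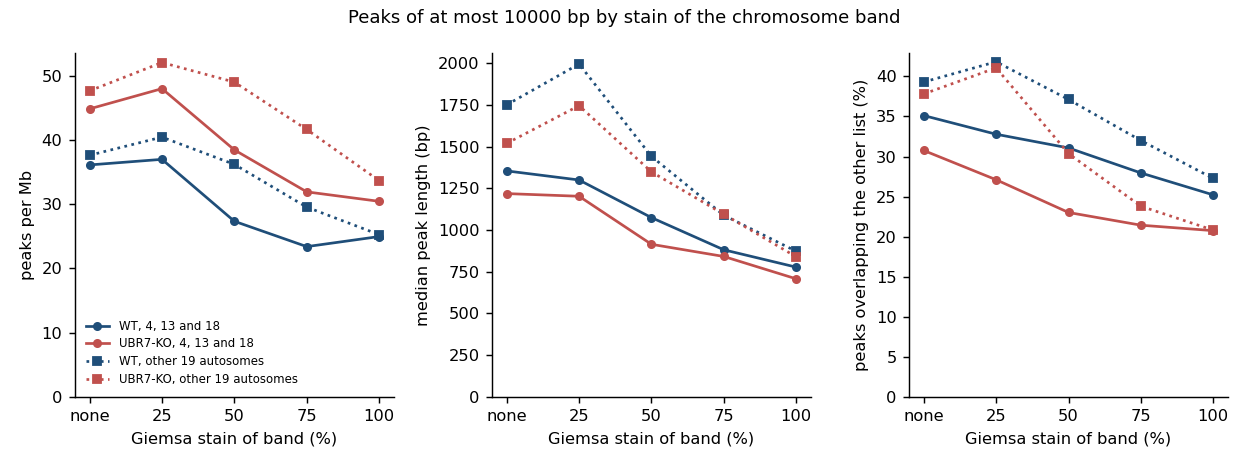
Peaks per Mb, median length in bp and share overlapping the other list in percent, by Giemsa stain of the band, for chromosomes 4, 13 and 18 (solid lines, circles) and the other 19 autosomes (dotted lines, squares), with 1 value per list and class. On chromosomes 4, 13 and 18, WT density went from 36.1 per Mb in unstained bands to 25 in the darkest, and UBR7-KO density from 44.9 to 30.5.

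Members were then counted in 1 Mb bins. Outside heterochromatic bands there were 345 full bins, with a median of 28 WT members (quartiles 22 and 37, range 11 to 79) and 37 UBR7-KO members (quartiles 27 and 50, range 13 to 81). The variance of the counts was 4.88 times the mean in WT and 5.22 times in UBR7-KO, where evenly scattered independent counts would give 1. The other 19 autosomes had 4.64 and 4.95. By chromosome, the ratio was 3.46, 4.48 and 6.22 in WT for chromosomes 4, 13 and 18, and 4.78, 5.29 and 5.10 in UBR7-KO. When peaks within 5000 bp were merged and the 10000 bp limit was then applied, it was 1.81 and 1.82 times the mean. Merged peaks over that limit were left out, so joining and removal cannot be told apart in these values. The variance to mean ratio was 1.71 and 1.32 among members with a fold enrichment of at least 2.5, which were 5.30 and 4.41 per bin on average. Such a ratio moves toward 1 as counts are thinned, so these values do not show whether stronger peaks clustered less.

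Dense and sparse bins lay next to bins of their kind. The counts of adjacent bins had a Pearson's r of 0.61 in WT and 0.53 in UBR7-KO over 340 pairs of bins. At a distance of 2 Mb, r was 0.44 and 0.38 over 335 pairs, and at 5 Mb it was 0.15 and 0.20 over 321 pairs. The difference between the lists (UBR7-KO minus WT) was less alike in adjacent bins, with an r of 0.16. These values describe bins of the same libraries, which share chromosome, band makeup and mappability and are not replicates.

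**Figure D3:**
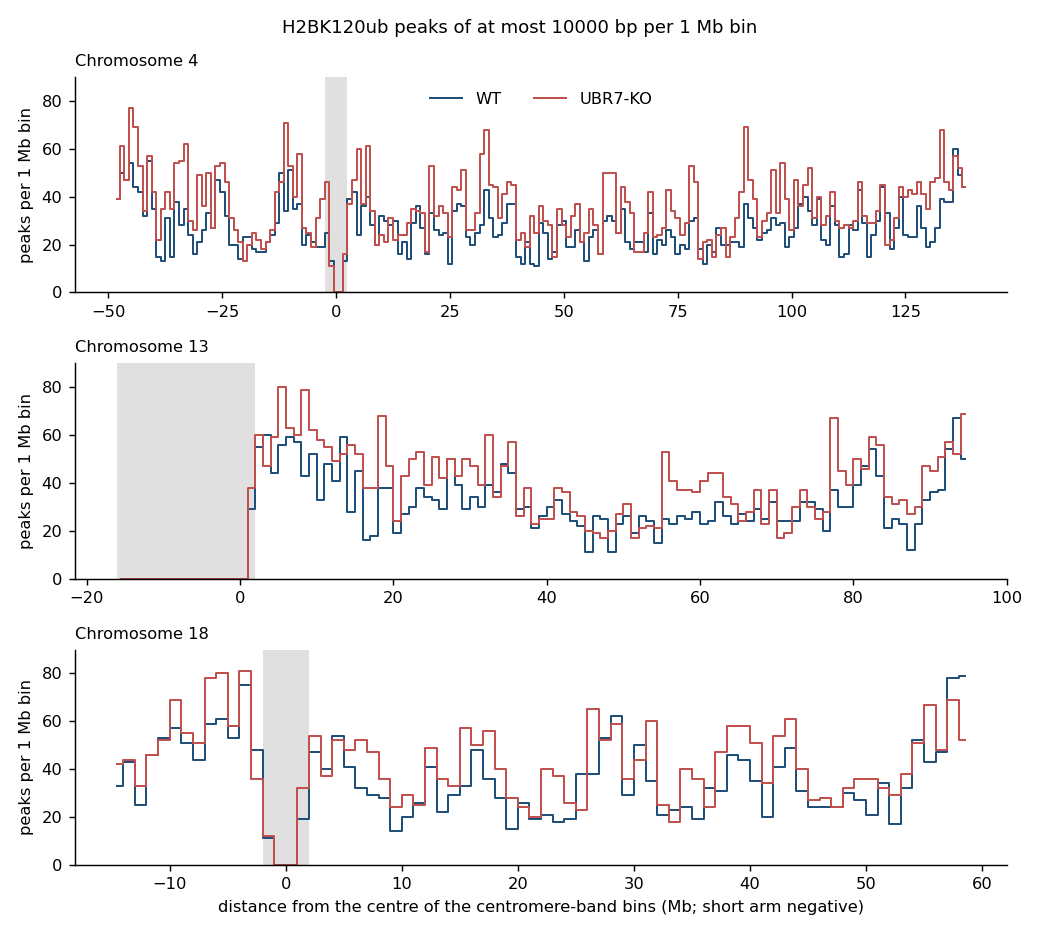
Members per 1 Mb bin along chromosomes 4, 13 and 18 in WT and UBR7-KO, against distance in Mb from the centre of the bins in centromeric bands, with heterochromatic bins shaded grey. Bins outside the shading held 11 to 79 WT and 13 to 81 UBR7-KO members, and both lists dropped to 0 in 21 of the 27 shaded bins.

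The 5 densest WT bins were on chromosomes 18 and 13. Bin 75000001 to 76000000 in 18q23 held 79 WT and 52 UBR7-KO members, and the adjacent bin 74000001 to 75000000 held 78 and 69. Bin 13000001 to 14000000 in 18p11.21 held 75 and 81 and was the densest UBR7-KO bin. Bin 111000001 to 112000000 in 13q34 held 67 and 52, and bin 45000001 to 46000000 in 18q21.1 held 62 and 59.

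The other 4 of the 5 densest UBR7-KO bins were on chromosomes 13 and 18. In 13q12.12, bin 23000001 to 24000000 held 80 UBR7-KO and 56 WT members. In 13q12.13, bin 26000001 to 27000000 held 79 and 43. On the short arm of chromosome 18, bin 11000001 to 12000000 (18p11.21) held 80 and 61, and bin 10000001 to 11000000 (18p11.22) held 78 and 59. None of these densest bins was on chromosome 4. Since each set was picked in 1 list, a lower count in the other list is partly built in.

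The sparsest bins were mostly on chromosome 4. In WT, the counts were 11 members in 4q22.2 (94000001 to 95000000), 13q21.31 (63000001 to 64000000) and 13q21.32 (66000001 to 67000000), where UBR7-KO had 25, 20 and 20. A further 5 bins held 12 WT members each, 1 in 4q13.3, 2 in 4q22.1, 1 in 4q28.3 and 1 in 13q33.2, with 21 to 32 UBR7-KO members. The 5 sparsest UBR7-KO bins were all on chromosome 4, with 13 members in 4p15.1 (30000001 to 31000000), 14 in 4q28.2 (130000001 to 131000000), and 15 each in 4q22.3 (98000001 to 99000000) and in a pair of bins in 4q28.3 (133000001 to 134000000 and 136000001 to 137000000). WT members there numbered 23, 18, 17, 17 and 20.

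Of the bins ranked by count, the 34 densest bins held 18.2% of WT members and 16.8% of UBR7-KO members, and the 34 sparsest held 4.65% and 4.71%. The lists had 16 of their densest bins in common (47.1% of the 34) and 12 of their sparsest (35.3%). Each set was about 10% of the 345 bins, which is the share that unrelated orders would have in common on average. Chromosome 18, with 70 of the 345 bins, supplied 15 of the densest WT bins and 10 of the densest UBR7-KO bins, but 2 of the sparsest in either list. Chromosome 4, with 182 bins, supplied 27 of the sparsest WT bins and 23 of the sparsest UBR7-KO bins. None of the densest bins of either list had its midpoint in the darkest band class, which held 82 of the 345 bins, whereas 11 of the sparsest WT and 14 of the sparsest UBR7-KO bins did.

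Counts of the same bin went together in the lists, with a Pearson's r of 0.75 and a Spearman's rho of 0.77 over the 345 bins, against 0.70 and 0.72 over 2233 bins of the other autosomes. Pearson's r was 0.72 on chromosome 4, 0.75 on chromosome 13 and 0.78 on chromosome 18. UBR7-KO members outnumbered WT members in 275 bins (79.7%), WT members were more numerous in 58, and 12 were equal. The share on the other autosomes was 83.4%.

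**Figure D4:**
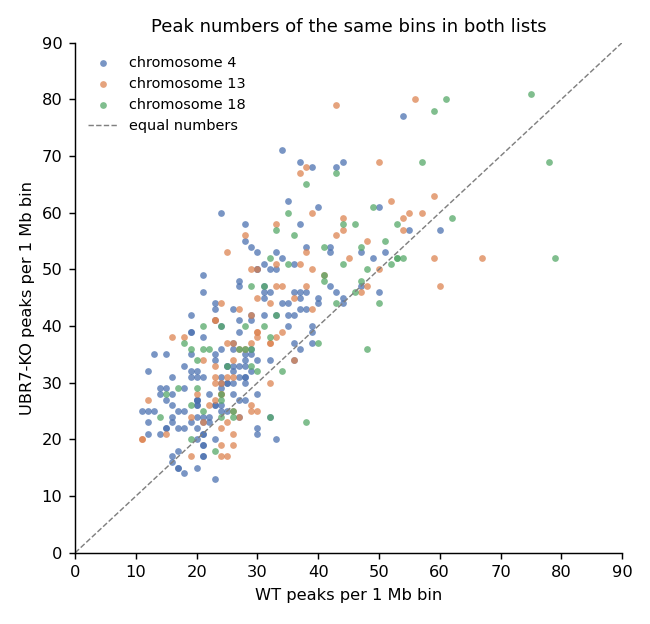
WT against UBR7-KO members in each of the 345 bins of 1 Mb outside heterochromatic bands, coloured by chromosome, with the line of equal numbers dashed. Of the bins, 275 lie above the line and 58 below it.

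Of the bins that differed most, those with more UBR7-KO members lay on chromosomes 4 and 13. Those with more WT members were spread over the 3 chromosomes. UBR7-KO exceeded WT by 37 members in 4p14 (39000001 to 40000000, 71 against 34), by 36 in 4q12 (55000001 to 56000000, 60 against 24) and by 36 in the 13q12.13 bin named above. It also exceeded WT in 4q31.1 (140000001 to 141000000, 69 against 37) and by 30 in 3 tied bins, in 4q21.22 (82000001 to 83000000, 58 against 28), 13q13.3 (36000001 to 37000000, 68 against 38) and 13q32.1 (95000001 to 96000000, 67 against 37). WT exceeded UBR7-KO by 27 in the 18q23 bin of 79 members and by 15 in the 13q34 bin of 67. The next were 18q12.3 (42000001 to 43000000), with 38 WT and 23 UBR7-KO members, 4q33 (171000001 to 172000000), with 33 and 20, and 13q12.11 (21000001 to 22000000), with 60 and 47. The excesses of UBR7-KO were larger than those of WT at each place in these orders.

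Over the 92 bands of at least 1 Mb, 87 held more UBR7-KO members, 4 held more WT members and 1 was equal. The 4 bands with more WT members were 13q31.2 (57 WT and 45 UBR7-KO members), 18q23 (205 and 165), 4q33 (74 and 62) and 13q21.31 (71 and 67). They were singled out after their values were seen. Of these, 18q23 reaches to the end limit of the long arm. At the other extreme, the ratio was 2.62 in 4q22.2 (16 WT and 42 UBR7-KO members) and 2.35 in 13q13.2 (26 and 61). Unstained were 3 of the 4 bands with more WT members and all 4 bands with the highest ratios. Unstained bands made up 43.6% of the length measured on the 3 chromosomes, which is a share of length and not of bands. Over all unstained bands the ratio was 1.24, near the 1.27 of all members. No link between stain and ratio is read from the few bands named.

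Density by band ranged from 11.4 to 68.9 WT and from 19.6 to 71.3 UBR7-KO members per Mb. On chromosome 4, 4p16.2 was densest in both lists, with 52.0 WT and 64.7 UBR7-KO members per Mb, while 4q22.2 was sparsest in WT (11.4, against 30 in UBR7-KO) and 4p15.1 was sparsest in UBR7-KO (21.4, against 19 in WT). On chromosome 13, 13q34 was densest in WT (58.5, against 60.3) and 13q12.13 in UBR7-KO (71.3, against 50.9). The sparsest were 13q13.2 in WT (17.3, against 40.7) and 13q31.2 in UBR7-KO (19.6, against 24.8). On chromosome 18, 18q23 was densest in WT (68.9, against 55.4) and 18p11.23 in UBR7-KO (64.3, against 47.9), and 18q12.3 was sparsest in both lists, with 23.3 and 30.2.

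Some bands of these chromosomes hold gene families that hepatocytes express strongly. They are listed for reference whatever their values, by the textbook band of the human genes, and no peak was assigned to a gene. Band 4q13.3 holds the genes of albumin, alpha-fetoprotein and the vitamin D binding protein, and it contained 137 WT and 197 UBR7-KO members, or 23.6 and 34.0 per Mb. That placed it 70th and 63rd from the densest of the 92 bands. Band 4q31.3 holds the 3 fibrinogen genes and contained 151 and 190 members (33.6 and 42.2 per Mb), 36th and 42nd in order. The alcohol dehydrogenase genes lie in 4q23, with 66 and 68 members (28.7 and 29.6 per Mb). The UGT2B genes, which conjugate bile acids and drugs, lie in 4q13.2, with 106 and 119 members (27.2 and 30.5 per Mb). The transthyretin gene lies in 18q12.1, with 200 and 267 members (26.0 and 34.7 per Mb). None of these 5 bands held a peak over 10000 bp in either list, which was so for 51 of the 92 bands. Members matched were 25.5% to 33.8% in WT and 20.3% to 25% in UBR7-KO, near the 31.8% and 26.6% of all members. The bands of these liver genes were not among the densest, at the resolution of whole bands.

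Close neighbours made up many of the members. When members with gaps of at most 20 kb were joined, WT members fell into 5205 groups and UBR7-KO members into 5498. Lone members were 2776 in WT (25.9% of members) and 2522 in UBR7-KO (18.5%). A fixed gap joins more members where peaks lie denser, and UBR7-KO held 39.1 members per Mb against 30.8 in WT. Groups were not compared with even scatter at these densities or with the other autosomes. No difference in clustering between the lists is therefore read from their numbers. There were 399 WT groups of at least 5 members, with 26.5% of all members, and 691 UBR7-KO groups, with 38.1%. Members of such groups overlapped the other list more often than lone members did, with 37.6% against 27.3% in WT and 31.5% against 21.1% in UBR7-KO. They were also longer, with medians of 1575 and 912 bp in WT and 1316 and 746 bp in UBR7-KO, and longer peaks matched more often. Among members of 1001 to 2000 bp, the shares were 34.2% against 28.9% in WT and 29.6% against 23.2% in UBR7-KO, and among those of 5001 to 10000 bp they were 64.1% against 67.6% and 66.7% against 71.4%.

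The largest group of each list and chromosome was counted in the other list too, where a lower number is partly built in by the choice. In WT, the largest was a run of 30 members in 13q34 (chr13:110877356-111105399), of which 19 overlapped the other list, and 16 UBR7-KO members lay in the same interval. On chromosome 18 the largest WT group had 22 members in 18p11.21 (chr18:13470729-13656566), where UBR7-KO had 21. On chromosome 4 it had 14 members in 4p16.2 (chr4:5666387-5802295), of which 4 overlapped, and UBR7-KO had 9. In UBR7-KO, 38 members stood in 4p16.1 (chr4:6001480-6321509), of which 30 overlapped the WT list. In that interval WT had 16 members and another 9 peaks over 10000 bp. UBR7-KO also had 37 members in 18p11.23 (chr18:7045049-7348091), where WT had 19 and 9 of the 37 overlapped, and 26 members in 13q12.12 (chr13:23626210-23873855), where WT had 17 and 7 of the 26 overlapped. The last 2 are near the share of all UBR7-KO members that overlapped, 26.6%.

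Empty bins were found in heterochromatic bands alone. Each of the 345 bins outside them held members of both lists, and 0 bins held fewer than 10 in either list. On the other 19 autosomes, 3 of 2233 such bins were empty in WT and 1 in UBR7-KO, with 20 and 13 under 10. Of the 27 bins in centromeric, stalk and variable bands, 21 were empty in both lists. Chromosome 13 had 17 of these, 16 on its acrocentric short arm, for which the hg19 assembly holds no sequence, and 1 in 13q11. Its first member started at 19182947 in WT and at 19236351 in UBR7-KO. The stretch without members over the centromere was 3077 kb in WT and 3087 kb in UBR7-KO on chromosome 4. On chromosome 18 it was 3203 kb and 3187 kb. The heterochromatic bins that were not empty held 11 to 29 WT and 11 to 46 UBR7-KO members. Whether the assembly holds sequence in the empty bins outside the short arm of chromosome 13 was not checked. Absence of the mark is therefore not read from any empty bin.

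Outside those bands, the distance between neighbouring members had a median of 19.1 kb in WT and 14.8 kb in UBR7-KO, against 15.8 and 12.0 kb on the other autosomes. WT had 48 stretches over 200 kb without a member, and UBR7-KO had 28. Per 100 Mb that was 13.8 and 8.07, close to the 14.4 and 7.60 of the other autosomes. They were unevenly placed, with 28, 7 and 13 WT stretches on chromosomes 4, 13 and 18 and with 23, 4 and 1 UBR7-KO stretches. Chromosome 18 thus had 13 long WT stretches and 1 long UBR7-KO stretch.

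The 5 longest stretches of each list were picked as empty in that list, so members of the other list inside them are partly built in. None was empty in the other list, and the numbers inside were not set against that list's density. The longest in WT was 413.2 kb in 4q13.3 (chr4:75272493-75685712), with 3 UBR7-KO members inside. It was followed by 358.0 kb in 4q24 (chr4:104907617-105265569) with 9, 336.6 kb in 4p15.31 (chr4:19504513-19841124) with 2, 335.8 kb in 13q21.32 (chr13:66721928-67057751) with 11 and 276.4 kb in 4q32.3 (chr4:167371279-167647693) with 7. The longest in UBR7-KO was 336.5 kb in 4p15.1 (chr4:29119001-29455520), with 3 WT members inside. The next were 303.1 kb in 18q21.2 (chr18:50385277-50688395) with 4, 301.3 kb in 4q28.2 (chr4:130067392-130368660) with 4, 296.1 kb in 4q13.1 (chr4:63731825-64027923) with 6 and 291.0 kb in 4q28.2 (chr4:130667117-130958095) with 5. When the lists were pooled, 5 stretches over 200 kb remained. The longest was 244.9 kb in 18q21.2 (chr18:50430330-50675256), and the others measured 219.2 kb in 4p16.1, 218.3 kb in 4q26, 216.8 kb in 4q31.21 and 214.8 kb in 4p15.1. No peak over 10000 bp of either list touched any of the stretches named here.

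Peaks were short on these chromosomes. WT members had a median length of 1134 bp, with quartiles of 481 and 2153 bp. UBR7-KO members had a median of 1035 bp, with quartiles of 442 and 1957 bp. The medians on the other autosomes were 1467 and 1335 bp. Chromosome 4 had the shortest median of the 22 autosomes in both lists, with 1043 bp (WT) and 974.5 bp (UBR7-KO), and chromosome 13 came next with 1143 and 1061 bp. Chromosome 18 had 1306 and 1141 bp, 7th and 3rd from the shortest. Chromosomes 16, 17 and 22, taken as a contrast, had medians of 2036 and 1803 bp. Length also fell with the stain of the band, from 1354 bp in unstained bands to 777 bp in the darkest in WT and from 1218 to 707 bp in UBR7-KO. Peaks of at most 500 bp were 26.3% of WT and 29.7% of UBR7-KO members, against 20.4% and 22.8% on the other autosomes. Peaks of 5001 to 10000 bp were 5.69% and 3.85%, against 11.2% and 8.59%. The ratio of medians, UBR7-KO over WT, was 0.913, and it was 0.535 among members with a fold enrichment of at least 2.5.

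Peaks over the length limit were scarce here. Within 50 kb of a peak over 10000 bp of their own list lay 849 WT members (7.91%) and 577 UBR7-KO members (4.23%), against 21.8% and 14.1% of peaks on the other autosomes. The peaks left out by the limit covered 4.62 Mb in WT and 2.39 Mb in UBR7-KO, and the members covered 17.9 and 20.6 Mb. The limit itself cut through a continuous range. The longest WT member measured 10000 bp (chr4:8724871-8734870, fold enrichment 2.62) and the shortest WT peak left out measured 10021 bp (chr18:14140801-14150821, 2.57). For UBR7-KO the corresponding peaks measured 9993 bp (chr18:45614846-45624838, 2.25) and 10037 bp (chr18:34988255-34998291, 2.15). At the end limit, the WT member nearest to it (chr18:76070946-76075187, fold enrichment 2.05) and the WT peak just outside (chr13:113169741-113170920, 2.06) differed little in fold enrichment. The corresponding UBR7-KO peaks were chr18:76066612-76073348 (2.35, inside) and chr18:76078917-76079485 (2.06, outside).

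Peaks were then matched between the lists by an overlap of at least 1 bp. Of the WT members, 3415 (31.8%) had such an overlap, with a 95% Wilson interval of 30.9 to 32.7, whereas among WT peaks of all chromosomes under the same length and end limits the share was 35.9%. Of the UBR7-KO members, 3637 (26.6%, 25.9 to 27.4) overlapped a WT peak, with 31.7% over all chromosomes. These intervals account for counting error alone and treat neighbouring peaks as independent, which they are not. By chromosome, the shares were 30.6% of WT and 24.6% of UBR7-KO members on chromosome 4, 31.6% and 26.2% on chromosome 13, and 34.4% and 31.5% on chromosome 18. Chromosomes 4 and 13 had the lowest shares of the 22 autosomes in both lists, while chromosome 18 stood 6th and 11th from the lowest. Chromosome 13 was nearly level with chromosome 3 (31.7% and 26.8%) and chromosome 5 (31.9% and 27.1%). Chromosome X, which is not an autosome, had lower shares (21.1% and 17.7%). The short arm of chromosome 18 had the highest shares of the 5 arms (38.1% and 37.0%) and the long arm of chromosome 4 the lowest (28.9% and 22.3%). From unstained to darkest bands, the share went from 35.1% to 25.2% in WT and from 30.8% to 20.7% in UBR7-KO. A stricter criterion lowered the shares, to 12.8% and 10.1% when at least 50% of both peaks had to be shared.

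The share matched rose with length. In WT it was 17.5% (16.2 to 19) for members of at most 500 bp, 25.8% for 501 to 1000 bp, 30.7% for 1001 to 2000 bp, 46.4% for 2001 to 5000 bp and 67.9% (64.1 to 71.5) for 5001 to 10000 bp. In UBR7-KO it was 14.8%, 19.6%, 26.3%, 43.3% and 67.3% (63.2 to 71.2) over the same classes. The other autosomes followed the same course, with 19.9% to 64.1% in WT and 15.6% to 70.5% in UBR7-KO. With the length makeup of the other 19 autosomes, the 3 chromosomes would have 35.6% of WT and 30.4% of UBR7-KO members matched, against 36.8% and 32.8% measured there. The difference between the 3 chromosomes and the others was thus smaller at equal lengths, 1.15 against 4.95 percentage points in WT and 2.42 against 6.18 in UBR7-KO.

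**Figure D5:**
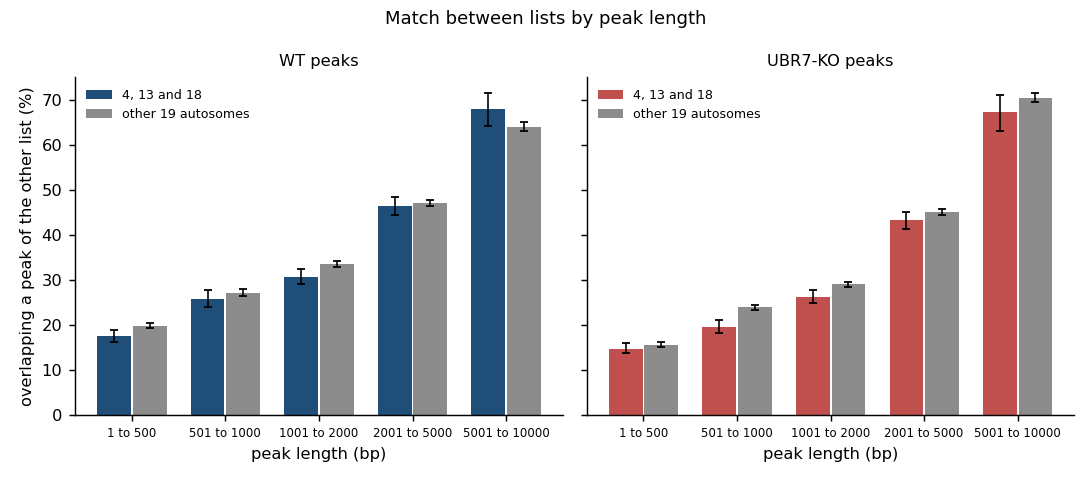
Share of WT (left) and UBR7-KO (right) peaks overlapping a peak of the other list in percent, by peak length in bp, for chromosomes 4, 13 and 18 (coloured) and the other 19 autosomes (grey), with 95% Wilson intervals for counting error as bars. The share on the 3 chromosomes rose from 17.5% to 67.9% in WT and from 14.8% to 67.3% in UBR7-KO.

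A longer peak offers more bases for an overlap, and so midpoints were also used. Outside heterochromatic bands, the midpoint of 22.5% of WT members (21.7 to 23.3) lay inside an UBR7-KO peak, and UBR7-KO peaks covered 6.60% of the stretch, a ratio of 3.40. On the other autosomes, 25.8% of midpoints lay inside, but 11.7% of the stretch was covered, a ratio of 2.21. In the other direction, 19.5% of UBR7-KO midpoints lay inside WT peaks, which covered 6.48%, a ratio of 3.01, against 24.7% of midpoints and a ratio of 1.88 on the other autosomes. Such a ratio falls as coverage rises, and peaks over 10000 bp add to the coverage elsewhere. As a share of the uncovered stretch, the excess over coverage was 17% on the 3 chromosomes and 16% on the others for WT, and 13.93% and 13.34% for UBR7-KO. Assembly gaps and unmappable sequence are part of the stretch in both cases, and their part in these values was not tested.

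Matched members were longer than unmatched ones, with medians of 1701 and 907 bp in WT and 1688 and 842 bp in UBR7-KO. Their fold enrichment was only slightly higher, with medians of 2.25 and 2.18 in WT and 2.18 and 2.16 in UBR7-KO. Unmatched members numbered 7317 in WT (68.2%) and 10015 in UBR7-KO (73.4%). Their distance to the nearest peak of the other list had a median of 8.22 kb in WT (quartiles 3.69 and 16.8 kb) and 10.6 kb in UBR7-KO (quartiles 4.73 and 21.5 kb), against 7.01 and 9.11 kb elsewhere. Within 5 kb of a peak of the other list lay 33.3% and 26.5% of the unmatched. The farthest were 142.4 and 181.1 kb away. Peaks over 10000 bp seldom supplied the match, for 89 WT members (2.61% of those matched) and 265 UBR7-KO members (7.29%), against 7.61% and 19.4% on the other autosomes.

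Where a WT and an UBR7-KO member overlapped only each other, the pair could be compared directly. There were 2988 such pairs, 1378 on chromosome 4, 840 on chromosome 13 and 770 on chromosome 18, which took in 27.8% of WT and 21.9% of UBR7-KO members. Paired WT members had a median length of 1582 bp and paired UBR7-KO members 1533.5 bp, and the WT peak was the longer in 52.8%. Midpoints were a median of 466.2 bp apart (quartiles 184.5 and 930.5 bp), and the median pair shared 40.9% of the length it covered. Across pairs, which are not replicates, Spearman's rho was 0.37 for length and 0.15 for fold enrichment. Fold enrichment starts at 2 in both lists and spans a narrow range, which limits its correlation.

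Enrichment was low and even. Fold enrichment, which the authors' peak caller computed as the fragments stacked on a peak relative to the local background, had a median of 2.19 in WT and 2.16 in UBR7-KO members, and the deposited lists start at 2. At least 2.5 was reached by 17.3% of WT and 11.3% of UBR7-KO members. The highest values were 4.46 and 4.23. The median background of 2.16 in WT and 1.34 in UBR7-KO members stood against 2.30 and 1.46 on the other autosomes. Members at the lowest background of their list, which was 1.81 in WT and 1.16 in UBR7-KO, were 9.08% and 12.2%, against 6.35% and 7.27% elsewhere. Pileups and backgrounds scale with depth, and no difference between the genotypes is read from them.

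The 3 WT members of highest fold enrichment were all under 1000 bp. The first lay in 13q14.11 (chr13:42001890-42002869) with a fold enrichment of 4.46, and the UBR7-KO peak at the same place (chr13:42000350-42003211) reached 2.16. The second, in 4q13.3 (chr4:72897487-72898237), reached 4.19 and overlapped no UBR7-KO peak, the nearest being 9838 bp away. The third, in 13q13.3 (chr13:37247822-37248789), reached 4.09, with an overlapping UBR7-KO peak of 2.13. In UBR7-KO, the first lay in 4q31.3 (chr4:153856754-153860769), with 4.23 against 2.82 in the WT peak at that place (chr4:153855823-153860621). The second, in 4p15.31 (chr4:18840654-18841044), and the third, in 4q35.2 (chr4:188702996-188703467), reached 4.21 and 4.12 and overlapped no WT peak, the nearest being 16337 and 4809 bp away. Of these 6 members, 3 had a counterpart, beside 31.8% of all WT and 26.6% of all UBR7-KO members, and a lower fold enrichment of the counterpart follows from the choice.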

How the data were processed

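H2BK120ub ChIP-seq was analysed in 1 WT and 1 UBR7-KO library, grouped by the genotype in the labels. The authors aligned reads to hg19 and called peaks per library with MACS under a q-value limit. The methods name BWA as aligner, while the submitters' processing notes list Bowtie 1.1.2 and FastQC. Rabbit IgG is named beside the H2BK120ub antibody in the immunoprecipitation. Whether it was sequenced and used as a control, the caller's mode and the q-value limit are not given in the sources used here. The deposited lists give for each peak its length, its pileup (a signal computed by the authors' caller, which scales with depth) and its fold enrichment (a ratio of pileup to background, also from the authors' caller). Nothing was pooled.

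After removal of 6 blank lines from the UBR7-KO list, members were selected by position and length, counted in bins and bands by midpoint, and matched by overlap with any peak of the other list. Background was recovered as the value that, with 1 added to it and to the pileup, gives the fold enrichment. Positions count from 1. Chromosome lengths came from GenomeInfoDb 1.38.1 and bands from circlize 0.4.16 (R 4.3.3), whose band ends equalled the hg19 lengths on 22 autosomes. Python 3.11.15, numpy 2.4.6, pandas 2.3.3 and matplotlib 3.10.9 were used. The counts of matched members were the same with bedtools 2.31.1, and overlap and bin code was tested on simulated data. Shares have 95% Wilson intervals.

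The members, bands and measures were chosen with earlier results of these data known. Regions named are the 3 members of highest fold enrichment, the 5 densest, sparsest and most different bins, the 5 longest empty stretches, the extreme bands of at least 1 Mb per chromosome, the largest group of neighbours per chromosome, the members at the length limit, and bands of liver genes. The sparsest bins and the stretches empty in both lists were added to that rule later. Alternatives covered enrichment, length, end limit, merging, list size, overlap, bin size and single chromosomes. Those for density and stain were chosen after seeing the data. Read depth is unknown, so no difference between genotypes is read from pileups. Genes and sequences were not analysed here, because the gene tables at hand are of the mouse genome.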

Additional observations from a re-analysis of the deposited data

How the results depend on the processing

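No paired analysis was possible because there is 1 library per genotype and no test was run, and for the same reason no replicate could be left out. Of 142 values recomputed under other settings, 100 stayed within the counting interval or within 1.5 times the reported count or ratio. Another 37 moved and 5 turned in direction, and the causes were not tested. Those that stayed include the ratio of numbers with lists of equal size, which is largely built in. A fold enrichment of at least 2.5 turned the ratio of numbers to 0.829 and moved the ratio of median lengths to 0.535, the matched shares to 8.30% (WT) and 10.2% (UBR7-KO), the variance to mean ratios to 1.71 and 1.32, and the empty bins to 6 and 12. A pileup 3 or more times the background turned the density ratio to the other autosomes to 1.003 (WT) and 1.04 (UBR7-KO) and moved the ratio of numbers to 2.48, the matched shares to 25.4% and 10.7% and the variance to mean ratios to 1.98 and 3.01. Both thresholds were applied to both lists before matching, so fewer peaks were left to supply a match. The matched shares under them therefore do not show whether stronger peaks matched less often. Merging within 5000 bp, with merged peaks over 10000 bp left out, turned the WT density ratio to 1.03. It moved the variance to mean ratios to 1.81 and 1.82. Without chromosome 4, the WT density ratio turned to 1.006 and the matched shares were 32.9% and 28.6%. The UBR7-KO share was 25.2% without chromosome 18, 25.6% over 5 Mb from the ends and 24.8% when members alone could supply the match. The WT share was 33.1% with no length limit and 26.5% with lists of equal size. With a limit of 5000 bp the shares were 29.6% and 25%, and they were 20.7% and 18.5% for an overlap of 50% of the counted peak, 12.8% and 10.1% for 50% of both, 22.5% and 19.5% for a midpoint inside, and 54.5% and 46.1% for a peak within 5000 bp. The variance to mean ratios were 3.04 and 3.34 in bins of 500 kb and 8.03 and 8.08 in bins of 2 Mb, and with heterochromatic bins included 21 bins were empty in each list. Higher density in unstained than in darkest bands was kept in direction under the 10 alternatives run. Depth is unknown and limits what an absent peak means.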
